A study of Rattus norvegicus with 3 samples.

Results

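Rat platelets loaded with sorafenib were set against rat platelets loaded with lenvatinib, at the level of the messenger RNA that platelets carry. The genes described are those with 1 gene symbol in the platform annotation and a mean log2 signal over the 3 arrays of the study at or above 7.69, the level that 95% of the 1153 negative control features stay under. They number 1961 of 15037 named genes, or 13.04%. The choice used the mean of all 3 arrays and not the difference between the drugs. Every difference is the log2 signal of the sorafenib array minus that of the lenvatinib array, so that 1 stands for 2-fold and a positive value for a higher reading with sorafenib.

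Blood (3 mL) was drawn from each of 5 normal F344 rats, an inbred strain, and whole blood was spun for 7 minutes at 200 g to obtain platelets. One group of platelets was incubated with 10 µg of sorafenib and another with 10 µg of lenvatinib, each for 30 minutes at 37 °C, and drug outside the cells was washed out after a spin at 1000 g for 5 minutes. Control platelets of the same rats form the remaining group, and their incubation and washing are not described in the labels. Suspensions of 1 mL from the 5 rats were pooled within each group, and total RNA was hybridised to 1 array per group, so that there is no replicate, no p-value and no error for any value below.

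Platelets are anucleate fragments of bone marrow megakaryocytes. They hold ribosomes, mitochondria and a stock of megakaryocyte messenger RNA that is translated while they circulate, and they do not transcribe nuclear genes. A bulk array cannot tell fewer cells of a kind from less RNA per cell. Sorafenib and lenvatinib are oral multikinase inhibitors for liver cancer that share an aryl ether linked to a urea, and both act on receptors for vascular endothelial growth factor. The urea of sorafenib ends in a chlorinated trifluoromethylphenyl ring and its ether in a pyridine carboxamide, while the urea of lenvatinib ends in a cyclopropyl group and its ether in a quinoline carboxamide. Equal mass was used, which is not an equal number of molecules. This is 1 pair of compounds at 1 amount and 1 time.

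The 3 arrays had nearly equal medians over the 1961 genes, at 10.67 for sorafenib, 10.70 for lenvatinib and 10.69 for control. Platelet markers had high readings on every array: Gp9, of the von Willebrand factor receptor, read 19.23 with sorafenib, 19.13 with lenvatinib and 19.15 in control, and Treml1, a granule membrane receptor, read 19.54 on all 3. Of genes that mark other blood and vessel cells, 0 of 18 T cell genes and 0 of 13 natural killer cell genes reached the signal level for inclusion, against 2 of 21 neutrophil, 3 of 19 monocyte, 2 of 12 B cell and 1 of 13 endothelial genes. Red-cell genes did reach it, 15 of 32, and are described below. Readings stop at a ceiling of 19.93, which 14 of the 1961 genes had on both drug arrays, among them Pf4, Clec1b, Actb, B2m, Fth1 and Hba-a1. No difference can be read for those 14 genes.

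The sorafenib and lenvatinib arrays were close. Of the 1961 genes, 675 read higher with sorafenib (34.4%), 839 read lower (42.8%) and 447 had exactly the same value on both arrays (22.8%). The median difference was 0 and the SD over genes was 0.23. Past 1.5-fold lay 68 genes (3.47%), of which 36 read higher with sorafenib (1.84%) and 32 lower (1.63%). Past 2-fold lay 4 genes (0.204%), 2 of them higher (0.102%) and 2 lower (0.102%). Among the 13076 named genes below the signal level, 1.95% read 1.5-fold higher or more and 2.00% lower by as much, so the shares past 1.5-fold were alike on both sides of it. Genes just inside were E2f6, a repressor of cell-cycle genes, with a difference of -0.31, Cyb5r3 with -0.02 and Txlng with 0.00. Just outside were Slc41a3 with 0.00, Med15 with -0.54 and Arhgef1 with 0.01.

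The spread narrowed with signal. The SD of the differences was 0.26 for the 530 genes with mean signals below 9, 0.21 for the 263 genes from 12 to 14, and 0.09 for the 117 genes from 18 up. No gene from 16 up was 1.5-fold apart, and the gene furthest apart there was Rnasek, an endoribonuclease, at 16.93 with sorafenib and 16.36 with lenvatinib. From 18 up, 37.6% of genes were tied, and a tie so close to the ceiling cannot be read as an equal amount. Control features differed by kind. The 58 negative control features at or above the signal level had differences with an SD of 0.97, from -6.01 to 2.17. The 4 hybridisation controls differed by -0.02 to 0.08. The 63 ERCC features had an SD of 0.05, but their median was 4.09 on every array, far under the signal level. Only 2 of them read higher and 8 lower, and the others were tied, so their SD does not measure precision at higher signals.

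**Figure D1:**
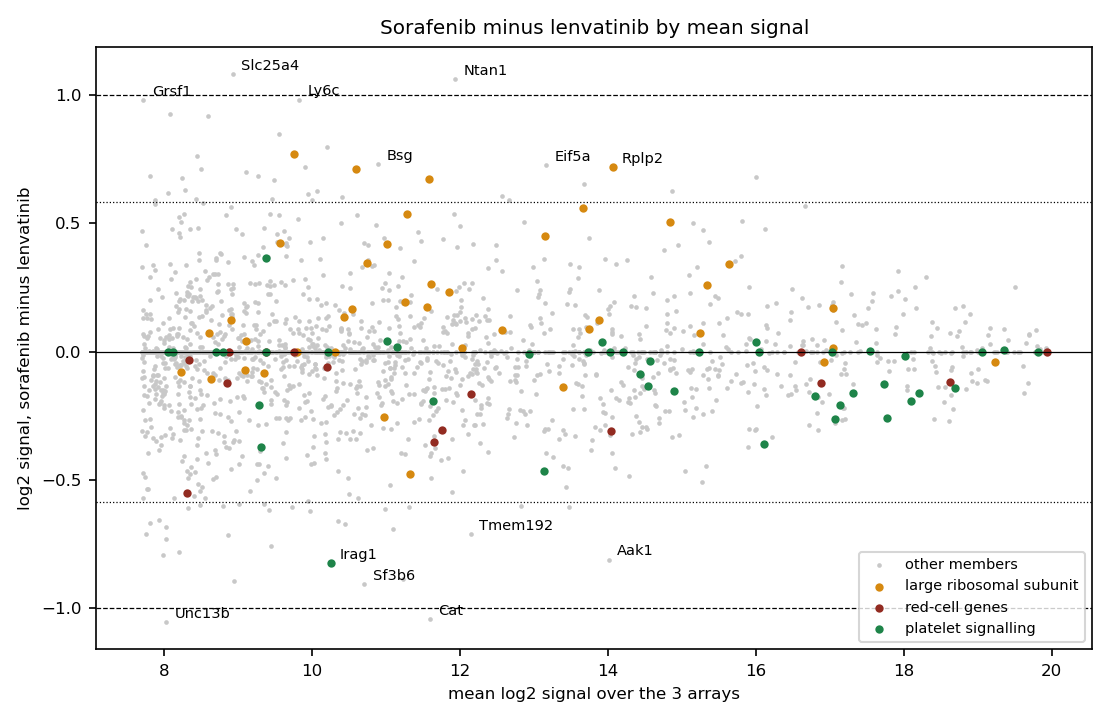
Difference in log2 signal, sorafenib minus lenvatinib (y axis), against mean log2 signal over the 3 arrays (x axis), for the 1961 genes. Each point is 1 gene, with 3 gene lists in colour, dotted lines at 1.5-fold and dashed lines at 2-fold. Only Slc25a4, Ntan1, Unc13b and Cat lie past 2-fold, and the scatter narrows to the right.

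The 2 genes past 2-fold in favour of sorafenib were Slc25a4 and Ntan1. Slc25a4, which encodes a carrier that exchanges ADP for ATP across the inner mitochondrial membrane, read 9.52 with sorafenib, 8.44 with lenvatinib and 8.82 in control, 2.12-fold higher with sorafenib. The related carrier gene Slc25a5, named after its value was seen, read 13.88 with sorafenib, 13.22 with lenvatinib and 13.94 in control. Both carriers thus read higher with sorafenib than with lenvatinib, but control lay nearer lenvatinib for Slc25a4 and nearer sorafenib for Slc25a5. Ntan1, an amidase that turns N-terminal asparagine into a signal for protein degradation, read 12.49 with sorafenib, 11.42 with lenvatinib and 11.89 in control, 2.09-fold higher with sorafenib.

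Past 2-fold in favour of lenvatinib were Unc13b and Cat. Unc13b, a priming factor of vesicle release, read 7.62 with sorafenib, 8.67 with lenvatinib and 7.79 in control, a difference of -1.05. Its sorafenib reading lies under the signal level and its control reading just above it, so Unc13b was included through its other arrays. Only 1 gene stayed 2-fold lower where the level was required on both drug arrays. Cat, the catalase that breaks down hydrogen peroxide, read 11.14 with sorafenib, 12.19 with lenvatinib and 11.45 in control, a difference of -1.04. In both genes lenvatinib was the array furthest from control.

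After Slc25a4 and Ntan1, the genes furthest towards sorafenib comprised those where sorafenib stood away from control and those where lenvatinib did. In the first kind, Ly6c, a membrane-anchored antigen of leukocytes, read 10.47 with sorafenib, 9.48 with lenvatinib and 9.52 in control, from a feature placed on no chromosome, so its value is uncertain. Cast, the calpain inhibitor calpastatin, read 10.13 with sorafenib, 9.28 with lenvatinib and 9.26 in control, and Cxcl6, a chemokine that draws neutrophils, read 8.72, 7.80 and 7.70 on the same 3 arrays. Grsf1, a protein of mitochondrial RNA granules, read 8.23 with sorafenib and 7.25 with lenvatinib, with control between them at 7.67. The lenvatinib and control readings of Grsf1 lie under the signal level, so it was included through the sorafenib array.

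In the second kind, the lenvatinib reading was low and the other readings lay close together. Eif5a, the hypusine-bearing translation factor, read 13.39 with sorafenib, 12.67 with lenvatinib and 13.42 in control. Bsg, basigin, a partner of lactate carriers, read 11.14 with sorafenib, 10.40 with lenvatinib and 11.13 in control. Atp5pd, a stalk subunit of ATP synthase, read 10.17, 9.45 and 10.10, and Serpini2, a serpin, read 8.70, 7.93 and 8.70, in the order sorafenib, lenvatinib, control. Txnl1, a thioredoxin-like protein bound to the proteasome, read 8.81 with sorafenib, 7.89 with lenvatinib and 9.05 in control. Slc35b1, a nucleotide carrier of the endoplasmic reticulum, differed by 0.80. The ribosomal protein genes Rpl35a and Rplp2, with control nearer sorafenib, and Rpl36, with control nearer lenvatinib, complete the 15 highest.

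Towards lenvatinib, the genes next to Unc13b and Cat had roles in RNA, signalling and traffic. Sf3b6, a subunit of the splicing factor that contacts the branch point, read 10.22 with sorafenib, 11.13 with lenvatinib and 10.76 in control. Tlk2, a kinase of chromatin assembly, differed by -0.90, and Inpp5f, a phosphoinositide phosphatase of endosomes, by -0.88. Irag1, the partner of the inositol trisphosphate receptor through which cyclic GMP restrains calcium release in platelets, read 9.89 with sorafenib, 10.72 with lenvatinib and 10.16 in control. Aak1, a kinase of clathrin adaptors, read 13.68 with sorafenib, 14.49 with lenvatinib and 13.86 in control, so that lenvatinib stood away from the other arrays in this case. Tmem192, a protein of the lysosomal membrane, read 12.06 with sorafenib, 12.77 with lenvatinib and 11.59 in control.

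Among the remaining genes of the 15 lowest, sorafenib was the array furthest from control for Filip1, an actin-binding regulator, Ly96, Rps10, Ascc3, a helicase of ribosome rescue, and Fbxo8. The sorafenib readings of Filip1, Ly96, Ascc3 and Fbxo8 lie under the signal level of 7.69, so these genes were included through their other arrays. With the level required on both drug arrays, 24 genes were at least 1.5-fold lower and 34 higher. Filip1 read 7.49 with sorafenib, 8.29 with lenvatinib and 8.18 in control. Ly96, the partner of Toll-like receptor 4, read 7.49 with sorafenib, 8.27 with lenvatinib and 8.86 in control. Ly96 is also on the monocyte list, whose signals summed on the linear scale were 43682 with sorafenib, 42849 with lenvatinib and 37298 in control. Most of that sum is Lyz2, lysozyme, at 15.37 with sorafenib, 15.34 with lenvatinib and 15.13 in control, while Cd14 read 2.89, 2.73 and 2.89. The part of monocyte RNA in the Ly96 reading was not tested. Txndc17, a small thioredoxin-like protein, differed by -0.71 and Zfp91, a zinc finger ubiquitin ligase, by -0.69, both with control nearer sorafenib.

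**Figure D2:**
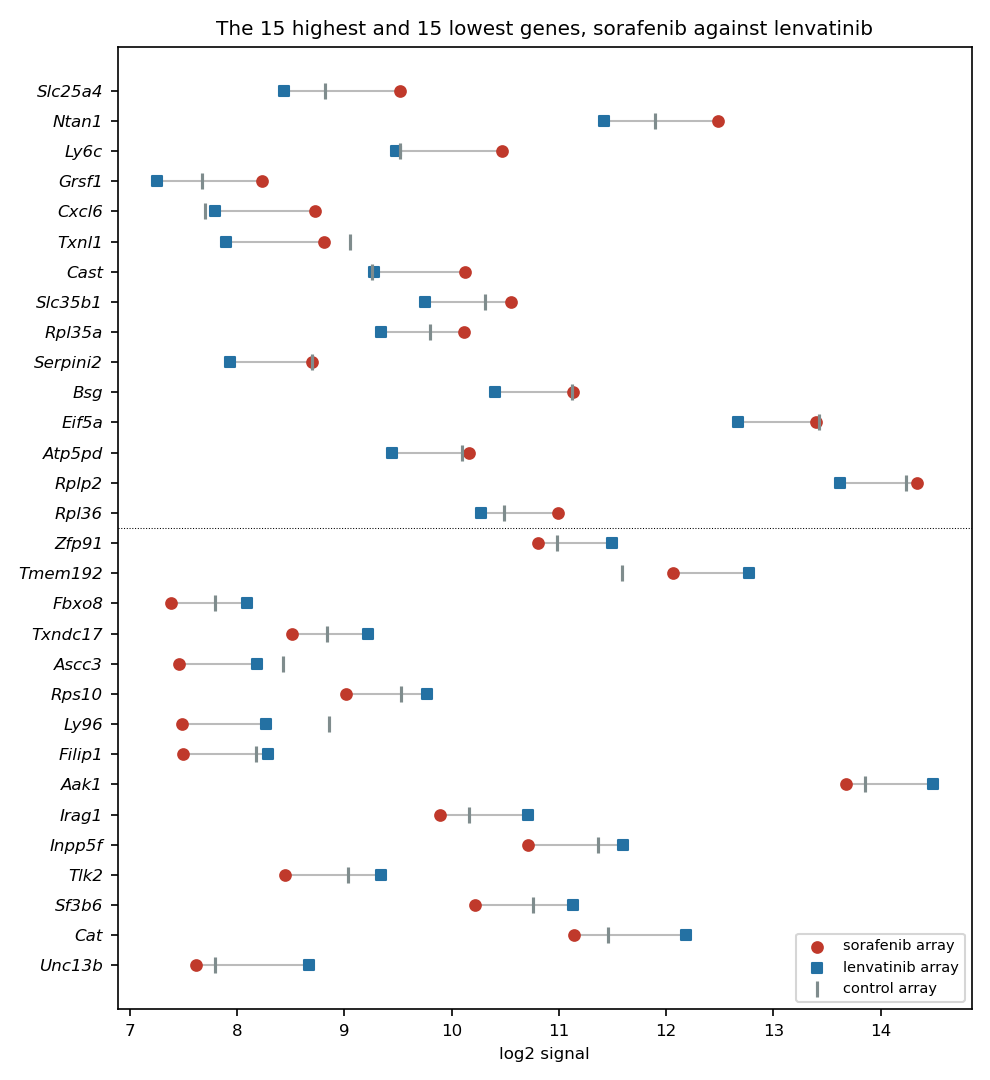
Log2 signal (x axis) of the 15 genes highest and the 15 lowest in sorafenib minus lenvatinib (y axis, a dotted line between them), with a circle for the sorafenib array, a square for the lenvatinib array and a bar for the control array. Control lies between the drug arrays in 11 of the 15 highest and 12 of the 15 lowest genes.

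The control array took no part in the difference, although it entered the mean that chose the genes. Of the 68 genes at least 1.5-fold apart, control lay between the drugs or level with 1 of them for 41. It lay above both for 13 and below both for 14. It was nearer sorafenib for 40 and nearer lenvatinib for 28, or 58.8% nearer sorafenib. Over all 1514 genes with any difference, control was nearer sorafenib for 851, or 56.2%. It was between the drugs or level with 1 of them for 678, or 44.8%. Among the 15 highest genes control was nearer sorafenib for 8 and nearer lenvatinib for 7, and among the 15 lowest nearer sorafenib for 7 and nearer lenvatinib for 8.

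Each gene list is given by how many of its members read higher, lower or the same with sorafenib and by its median, to be read against 34.4%, 42.8% and 22.8% and a median of 0 over all 1961 genes. A step of 0.1 or more upward was seen in 20.9% of genes and downward in 27.2%. A step of at least 1.5-fold upward was seen in 1.84% and downward in 1.63%. The lists were chosen with earlier results of these data known, so a list set against these shares is a description and not a test.

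Among lists of over 10 members, the large ribosomal subunit lay furthest towards sorafenib, while the 10 proteasome genes had a median of 0.22. Of the 40 large-subunit genes, 29 read higher with sorafenib, 9 lower and 2 tied, and the median was 0.13 (mean 0.18). By 0.1 or more, 22 read higher and 4 lower, and 4 were at least 1.5-fold higher, against 1.84% of all 1961 genes. Rpl35a read 10.11 with sorafenib, 9.34 with lenvatinib and 9.80 in control. Rplp2, of the stalk that recruits translation factors, read 14.34, 13.62 and 14.24 on the same arrays. Rpl36 read 10.99, 10.28 and 10.49, and Rpl36a read 11.86, 11.19 and 11.70.

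The difference was not shared by every ribosomal protein gene. Rpl7a, the lowest of the large-subunit list, read 11.05 with sorafenib, 11.52 with lenvatinib and 11.37 in control, and Rpl23a differed by -0.25. Of the 26 genes of the small subunit, 12 read higher, 8 lower and 6 tied, and the median was 0 (mean 0.01). Rps3, at the entry of the messenger RNA channel, read 9.54 with sorafenib, 9.06 with lenvatinib and 9.46 in control, while Rps10 read 9.02 with sorafenib, 9.77 with lenvatinib and 9.53 in control. The medians against control were 0.06 with sorafenib and -0.16 with lenvatinib for the large subunit, and -0.02 and -0.08 for the small subunit, with the same control array in each. Ribosomal protein genes have near-identical copies elsewhere in the genome, and Rpl35a, Rpl7a and Rps10 were read by features that the array's identifiers place on no chromosome, so single values are uncertain.

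Ribosomal protein messenger RNAs are known for a terminal oligopyrimidine tract, a C followed by a run of C and T at the very start of the transcript, through which their translation is controlled together. The tract was looked for in RefSeq promoters of build GRCr8 (250 bases before to 50 after the annotated start, the first promoter listed for each gene) as a C followed by at least 4 bases that are C or T, on the gene's strand, from 10 bases before to 15 after the start. It was found in 25 of 33 large-subunit genes with a promoter (75.8%), in 18 of 23 small-subunit genes (78.3%), in 524 of 1654 of the genes described here (31.7%) and in 28.8% of 27457 promoters. The 4 large-subunit genes furthest towards sorafenib and the 2 genes of both subunit lists furthest towards lenvatinib are shown to set the ends of this range beside each other. Each line holds 15 bases before and 15 after the annotated start, with the first run found in the searched stretch in capitals.
Rpl35a (difference 0.77, chr11:81235007-81235036, minus strand): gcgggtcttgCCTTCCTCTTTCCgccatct
Rplp2 (difference 0.72, chr1:205975906-205975935, plus strand): cctttcgccgccggacgccgccgaggtcgc
Rpl36 (difference 0.71, chr9:1533765-1533794, plus strand): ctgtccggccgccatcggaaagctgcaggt
Rpl36a (difference 0.67, chrX:102059434-102059463, plus strand): ccgcctataaaCTTCCgttgctgctctagc
Rps10 (difference -0.76, chr20:5700730-5700759, minus strand): gccgcgcacgCCCCTTCCTTTCCagcctcc
Rpl7a (difference -0.48, chr3:30637121-30637150, plus strand): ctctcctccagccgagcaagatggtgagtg
A tract of 13 bases stood in Rpl35a and in Rps10, which lie at opposite ends of the range. Rplp2 and Rpl7a open with a run of C and T that starts before the searched stretch, so these runs were not counted and stay in lower case, as does a second, shorter run in Rps10. The counts of genes with a tract therefore depend on where the search begins, and an annotated start can lie a few bases from the one platelets use.

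Other parts of the translation machinery were mixed. Of 20 initiation, elongation and release factors, 8 read higher with sorafenib, 6 lower and 6 tied, and the median was 0 (mean 0.04). Eif5a was the only 1 past 1.5-fold. Eif3m, of the initiation factor that docks on the small subunit, read 8.94 with sorafenib, 8.68 with lenvatinib and 8.97 in control, and Eif3e, of the same complex, read 8.65, 9.00 and 8.75. Of the 63 measured mitochondrial ribosomal protein genes 2 had enough signal, and both read higher with sorafenib. Mrps18c read 17.32 with sorafenib, 16.99 with lenvatinib and 17.20 in control, and Mrpl52 read 9.80, 9.39 and 9.79.

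Nuclear genes of the respiratory chain and ATP synthase read higher with sorafenib for 15 of 30, lower for 10 and tied for 5, and the median was 0.01 (mean 0.08). The members furthest apart pointed towards sorafenib. After Atp5pd these were Cox7a2, of cytochrome oxidase, at 12.17 with sorafenib, 11.68 with lenvatinib and 12.13 in control, and Uqcrb, of complex III, at 9.70, 9.29 and 9.94. Atp5f1e, the smallest subunit of the ATP synthase head, read 8.67 with sorafenib, 8.28 with lenvatinib and 8.47 in control. In the other direction, Ndufa1, of complex I, read 16.94 with sorafenib, 17.21 with lenvatinib and 17.36 in control.

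Genes of glucose use read higher with sorafenib in 8 of 14 cases, lower in 2 and tied in 4, with a median of 0.02. Taldo1, transaldolase of the pentose phosphate path, read 12.32 with sorafenib, 11.90 with lenvatinib and 12.29 in control. Tpi1, triosephosphate isomerase, read 8.96 with sorafenib, 8.69 with lenvatinib and 8.52 in control. Slc2a3, the main glucose carrier of platelets, went the other way, at 11.50 with sorafenib, 11.86 with lenvatinib and 11.23 in control.

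Proteasome genes read higher with sorafenib in 7 of 10 cases and lower in 3, and the median was 0.22 (mean 0.14). None was 1.5-fold apart, and the median of their mean signals was 9.56, against 11.43 for the large ribosomal subunit. Psmd6, of the regulatory lid, read 9.86 with sorafenib, 9.49 with lenvatinib and 9.58 in control, and Psmd9, an assembly chaperone, read 9.31, 8.94 and 8.98. Psme4, a proteasome activator, read 13.29 with sorafenib, 13.51 with lenvatinib and 13.77 in control. With the signal level raised to the 99th percentile of the negative controls, Psme4 was the only member left.

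Of 26 genes of autophagy and the lysosome, 13 read higher with sorafenib, 8 lower and 5 tied, and the median was 0. The 2 members past 1.5-fold, Tmem192 and Rb1cc1, both read lower. Sqstm1, the cargo receptor p62, read 10.07 with sorafenib, 9.64 with lenvatinib and 10.20 in control. Gabarapl2, a ubiquitin-like protein of the autophagosome membrane, read 15.87 with sorafenib, 15.52 with lenvatinib and 15.74 in control, and the related Map1lc3b differed by 0.33. Rb1cc1, the scaffold that starts autophagosome formation, differed by -0.60, with 8.28 with sorafenib, 8.88 with lenvatinib and 8.28 in control.

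**Figure D3:**
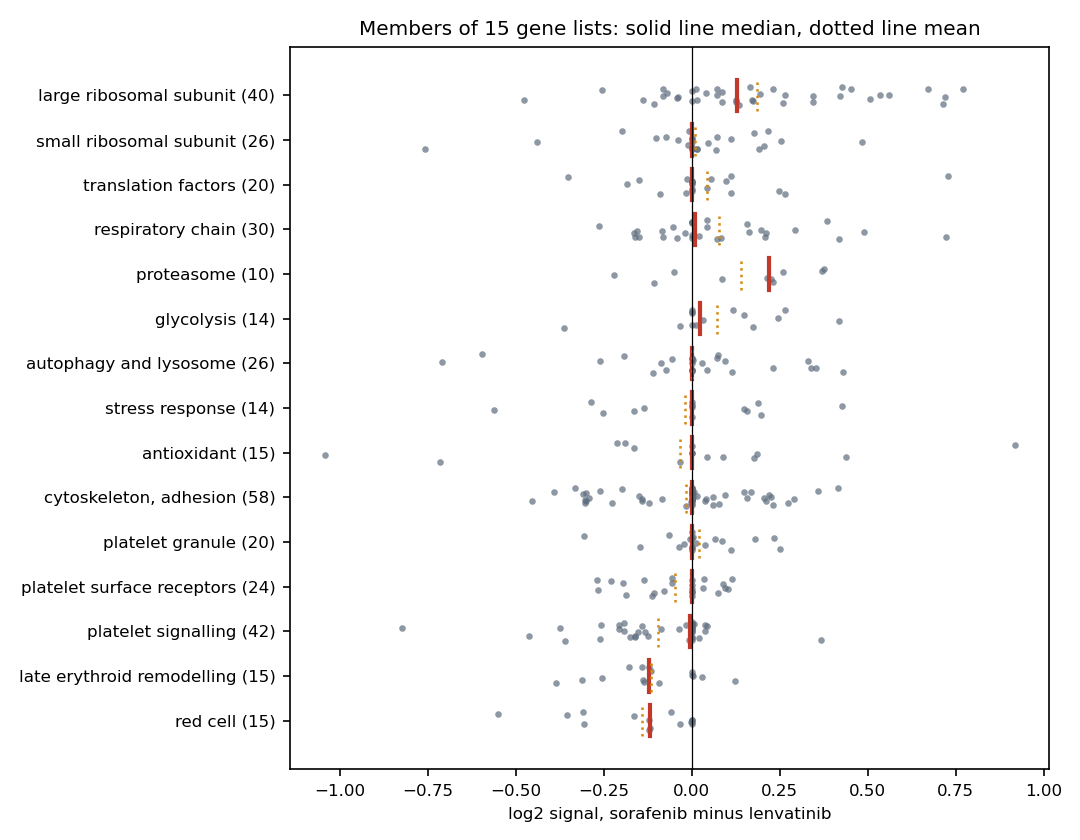
Difference in log2 signal, sorafenib minus lenvatinib (x axis), for the members of 15 gene lists (y axis, number of genes in parentheses). Each point is 1 gene, the solid line the median and the dotted line the mean of the list. The large ribosomal subunit and the proteasome lie to the right of 0, the late erythroid and red-cell lists to the left, and most other medians at 0.

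Genes of platelet signalling were more often lower with sorafenib. Of 42, 23 read lower, 7 higher and 12 tied, against 42.8%, 34.4% and 22.8% of all 1961 genes. By 0.1 or more, 17 read lower and 1 higher. The median was -0.005 and the mean -0.10, since the many ties hold the median near 0, and with tied genes left out the median was -0.14. A median without ties over all 1961 genes was not computed. Irag1 was the only 1 past 1.5-fold. The mean signals of the list had a median of 14.55, and genes of like signal also leaned lower. Of the 206 genes with mean signals from 14 to 16, 107 read lower with sorafenib, 75 higher and 24 tied. The calcium pumps that refill the stores read lower with sorafenib: Atp2a2 read 12.83 with sorafenib, 13.30 with lenvatinib and 13.28 in control, and Atp2a3 read 16.03, 16.38 and 15.92. For Atp2a2 sorafenib stood away from control, and for Atp2a3 lenvatinib did.

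Among members of the list 0.1 or more apart, only Gng11 read higher with sorafenib. Pik3cb, the phosphoinositide kinase downstream of platelet integrins, read 9.07 with sorafenib, 9.45 with lenvatinib and 9.39 in control. Lyn, a Src-family kinase, read 16.99 with sorafenib, 17.25 with lenvatinib and 16.95 in control. Gng11, a G protein gamma subunit, was the member furthest the other way, at 9.56 with sorafenib, 9.20 with lenvatinib and 9.35 in control. Control was nearer sorafenib for 20 of the 42 genes and nearer lenvatinib for 10.

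Receptors on the platelet surface read lower with sorafenib in 11 of 24 cases, higher in 7 and tied in 6, and the median was 0 (mean -0.05). F2rl3, the thrombin receptor PAR4, read 9.06 with sorafenib, 9.33 with lenvatinib and 9.05 in control. Pecam1, an inhibitory adhesion receptor, read 12.87, 13.10 and 12.57, and P2ry12, the ADP receptor that clopidogrel blocks, read 18.04, 18.17 and 17.90. Granule cargo genes were higher in 9 of 20 cases, lower in 6 and tied in 5. Tgfb1, a growth factor of alpha granules, read 16.84 with sorafenib, 17.14 with lenvatinib and 16.52 in control, while Ppbp, the precursor of a neutrophil-activating chemokine, read 18.89, 18.71 and 18.78. None of the genes in these lists was 1.5-fold apart.

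The 58 genes of cytoskeleton and adhesion divided evenly, with 21 higher with sorafenib, 19 lower and 18 tied. Their median was 0 and none lay past 1.5-fold. Tgfb1i1, the adhesion adaptor Hic-5, read 14.07 with sorafenib, 14.53 with lenvatinib and 13.69 in control, and Capza2, an actin filament capper, read 12.11, 12.50 and 12.52. In the other direction, Wipf1, the partner of the Wiskott-Aldrich protein, read 12.58 with sorafenib, 12.17 with lenvatinib and 12.71 in control, and Arpc4, of the Arp2/3 complex, read 14.45, 14.09 and 14.24. Vesicle traffic was likewise balanced, with 13 of 34 genes higher, 13 lower and 8 tied. Trappc2, a tethering factor, read 9.35 with sorafenib, 8.67 with lenvatinib and 9.76 in control, and Rab21, an endosomal GTPase that binds integrins, read 10.91, 11.52 and 11.47.

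No red-cell gene with enough signal read higher with sorafenib. Of 15, 11 read lower and 4 tied, against 42.8% and 22.8% of all 1961 genes, with a median of -0.12 and none at 1.5-fold. The median was -0.05 after quantile normalization and -0.06 without the features placed on no chromosome, a group that includes Hbb-b1 and Hbb-bs, whose near-identical copies make their values uncertain. By 0.1 or more, 8 read lower, against 27.2% of all. Slc4a1, the anion exchanger, read 8.23 with sorafenib, 8.78 with lenvatinib and 7.93 in control. Lgals5, a galectin of rat reticulocytes, read 11.82 with sorafenib, 12.17 with lenvatinib and 10.94 in control. Alas2, the erythroid enzyme that starts heme synthesis, read 12.08 with sorafenib, 12.25 with lenvatinib and 12.09 in control, and Rhag, of the Rh complex, read 16.86, 16.98 and 16.82.

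The signals of the red-cell list, summed on the linear scale over genes below the ceiling, were 639089 with sorafenib, 689081 with lenvatinib and 648388 in control. Most of that sum is the beta-globin gene Hbb, at 18.56 with sorafenib, 18.68 with lenvatinib and 18.63 in control. Of the 17 list members with less signal, 10 read lower with sorafenib, 3 higher and 4 tied, among them Ahsp, the alpha-globin chaperone, at 5.03 with sorafenib, 5.68 with lenvatinib and 4.75 in control. Hba-a1 was at the ceiling on all 3 arrays. Whether the suspensions held different numbers of red cells was not tested. In the promoters of the list, the GATA motif AGATAA, on either strand, was found in 4 of 14 genes (28.6%), against 6.41% of the genes described here and 11.3% of all promoters.

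Genes that stay or rise late in red-cell maturation, many of which platelets also express, had a median of -0.12 as well. Of 15, 10 read lower with sorafenib, 3 higher and 2 tied, and by 0.1 or more 9 read lower and 1 higher. Ube2h, a ubiquitin-conjugating enzyme, read 8.43 with sorafenib, 8.81 with lenvatinib and 8.81 in control. Cpeb4, a regulator of translation in erythroid cells, read 9.37 with sorafenib, 9.69 with lenvatinib and 9.87 in control, and Riok3, a kinase induced late in erythroid cells, read 16.76, 16.94 and 16.82. In contrast to the red-cell list, control was nearer lenvatinib for 9 of these genes and nearer sorafenib for 4, so that sorafenib more often stood away. In the red-cell list control was nearer sorafenib for 8 and nearer lenvatinib for 3.

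**Figure D4:**
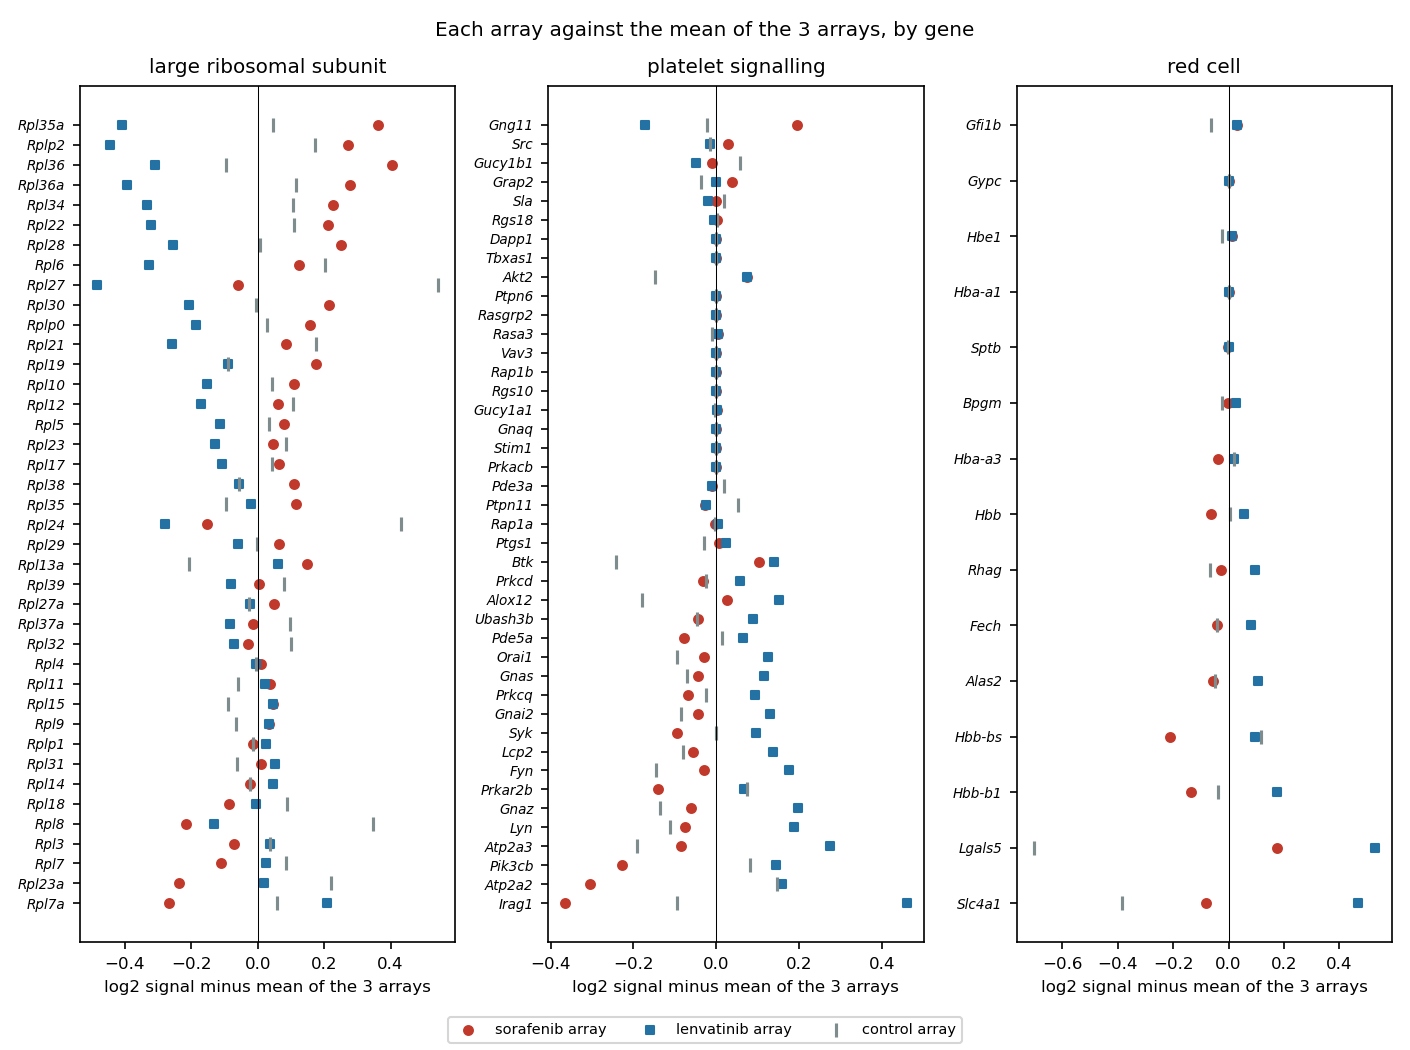
Log2 signal of each array minus the mean of the 3 arrays (x axis) for each gene (y axis, ordered by sorafenib minus lenvatinib) of the large ribosomal subunit, platelet signalling and red-cell lists. Circles are the sorafenib array, squares the lenvatinib array and bars the control array. At the top of the ribosomal panel the lenvatinib squares lie furthest left, and at the bottom of the red-cell panel furthest right.

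Heme and iron genes showed little difference. Of 7, 4 tied, 2 of them at the ceiling (Fth1 and Ftl1, the ferritin chains). The 2 that read lower with sorafenib, Alas2 and Fech, are also counted in the red-cell list. The 1 that read higher was Slc40a1, the iron exporter, at 19.16 with sorafenib, 19.13 with lenvatinib and 19.21 in control. Antioxidant genes were split, with 6 of 15 higher, 6 lower and 3 tied. Their median was 0, and 3 of the 15 were at least 1.5-fold apart, against 3.47% of all 1961 genes. Of these 3, Txnl1 read higher and Cat and Txndc17 lower. The list was chosen with earlier results of these data known, so this share cannot be read as an excess. Glrx, glutaredoxin, read 12.06 with sorafenib, 11.63 with lenvatinib and 11.60 in control. Gpx4, which reduces lipid peroxides, read 10.19 with sorafenib, 10.40 with lenvatinib and 10.19 in control.

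Stress response genes read higher with sorafenib in 5 of 14 cases, lower in 5 and tied in 4. Atf4, whose product drives amino acid genes, differed by 0.43. Asns, an amino acid gene of the same list, went the same way, at 9.29 with sorafenib, 9.13 with lenvatinib and 8.83 in control, and Ddit3 tied. Slc7a11, the cystine carrier that is among the targets of Atf4, differed by -0.56, at 8.20 with sorafenib, 8.76 with lenvatinib and 8.25 in control. Slc3a2, the partner chain of Slc7a11, read 13.86 with sorafenib, 14.15 with lenvatinib and 13.86 in control. Both chains of this carrier thus read higher with lenvatinib than on the other arrays. Heat shock and chaperone genes had 7 of 12 higher, 2 lower and 3 tied, but by 0.1 or more 2 read higher and 2 lower. Hspd1, the member furthest apart, read 9.70 with sorafenib, 9.96 with lenvatinib and 9.90 in control. Hspa8 read 16.96 with sorafenib, 16.78 with lenvatinib and 16.81 in control. Its feature is placed on no chromosome, so its value is uncertain.

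Few genes nearer the drugs themselves had enough signal. Of 17 measured target kinases 1 did, Kdr, which read 8.98 on all 3 arrays. Of 41 genes of the MAP kinase path and its early response 6 did, with 2 higher, 2 lower and 2 tied. Map2k1, the kinase MEK1 below RAF, read 11.16 with sorafenib, 11.32 with lenvatinib and 11.46 in control. Of 28 drug transport and metabolism genes 4 did, and all 4 read lower with sorafenib, with differences of -0.03 to -0.43. Abcc1, an efflux pump for glutathione conjugates, read 8.20 with sorafenib, 8.63 with lenvatinib and 7.89 in control.

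Among the lists that follow, only the splicing list held a gene past 1.5-fold, Sf3b6, which differed by -0.91. Of 6 cell death genes, 5 read higher with sorafenib and 1 tied, but only 2 read higher by 0.1 or more. Furthest apart was Cflar, an inhibitor of caspase 8, at 8.10 with sorafenib, 7.69 with lenvatinib and 7.49 in control. The lenvatinib and control readings of Cflar lie just under or under the signal level, so it was included through the sorafenib array. Of the 29 cell death genes below the signal level, 16 had lower readings with sorafenib, 11 higher readings and 2 equal readings. The 11 megakaryocyte transcription factors had 3 higher, 5 lower and 3 tied, with Gata1 at -0.17 and Runx1 at 0.13. Of 15 splicing genes, 8 read higher, 4 lower and 3 tied. Srsf3, a splicing regulator, read 9.81 with sorafenib, 9.39 with lenvatinib and 9.71 in control. The 8 antigen presentation and interferon genes had 4 higher, 2 lower and 2 tied, with RT1-A2, a class I chain, at 10.03 with sorafenib, 9.78 with lenvatinib and 10.01 in control. The 3 histone genes differed by -0.01 to 0.09.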

How the data were processed

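For each of 3 arrays the authors deposited log2 signals of 23188 features; background correction, probe summary and normalization are not given in the sources used here, and the labels' protocols give biotin labelling only. The series value table holds the same log2 values and 1646 control features. Exact ties between arrays are frequent and do not show equal transcripts. Of the features, 15049 had 1 platform gene symbol, 0 several and 8139 none. All 15049 gene IDs were found in RefSeq GRCr8, used for names and promoters. The feature with the highest mean was kept for a gene with several, which left 15037 genes. Differences were computed in Python 3.11.15 with pandas 2.3.3; limma 3.58.1 gave cyclic loess. The steps were tested on simulated data. With 1 array per group no test is possible and no p-value was computed. Arrays have no depth, and their number limits the precision.

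The genes described and the 33 gene lists were chosen with earlier results of these data known. Named are the 15 highest and 15 lowest differences, passing over locus numbers, up to 6 members per list with the largest differences, any member of the red-cell, iron, antioxidant, ribosomal and stress lists, and ceiling and boundary genes. A few others (Slc25a5, Rnasek, Usp9x, Slc2a4, Tpm3, Oaz2) were chosen for naming once their values had been seen. Alternatives were other signal levels, median centring, quantile and cyclic loess normalization, the mean over features, the series value table, and leaving out ceiling or tied genes.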

Additional observations from a re-analysis of the deposited data

How the results depend on the processing

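The counts past a fold followed the signal level required. At the 99th percentile of the negative controls 5 genes were at least 1.5-fold higher with sorafenib, 2 lower and 0 at least 2-fold in either direction. At the 90th percentile 55 were higher and 59 lower at 1.5-fold, with 4 higher at 2-fold. At the median of all genes 169 and 177 were 1.5-fold higher and lower, and 12 and 17 were 2-fold. Requiring the level on both drug arrays left 1 gene 2-fold lower. Fewer or more genes enter by construction. The other settings kept these counts within 1.5 times. The median of the red-cell list was -0.054 after quantile normalization, that of the large ribosomal subunit 0.18 as a mean and 0.17 above a mean log2 signal of 9 (a setting chosen after seeing the data), and that of platelet signalling -0.062 at the 99th percentile, -0.10 as a mean and -0.14 without tied genes. The proteasome value was -0.22 at the 99th percentile, where Psme4 is the only member left, and the median was 0.11 at the 90th, 0.14 as a mean and 0.087 above a signal of 9. The late erythroid median lay between -0.14 and -0.10 under every setting tried. Control was nearer sorafenib for 100% of the genes 1.5-fold apart at the 99th percentile. The cause of the shifts of medians and of this share was not tested. No named gene of the 30 changed sign under median centring, quantile normalization, cyclic loess or the mean of all features, with a largest shift of 0.07. No paired analysis was possible because each group has 1 array.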

Other observations

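Some families fixed by name alone, as the letters before the first digit of the symbol with at least 8 genes at the signal level, lay to one side of 0. The 9 Usp genes, which encode deubiquitinating enzymes, had 7 lower with sorafenib, 0 higher and 2 tied, and the median was -0.06 and Usp9x furthest at -0.55. The 25 solute carrier genes (Slc) had 16 lower, 8 higher and 1 tied, and the median was -0.14 (mean -0.06), from Slc25a4 at 1.08 to Slc2a4, the insulin-responsive glucose carrier, at -0.61. The 12 Cox genes had 7 higher, 4 lower and 1 tied, and the median was 0.07. Shares over all genes at this level were 34.4% higher and 42.8% lower.

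Of 10 features without a gene symbol whose identifiers carry the letter M in place of a chromosome number, 8 read higher with sorafenib than with lenvatinib, 0 lower and 2 tied, and the median was 0.14 and a largest difference of 0.38. All their readings were 14.32 or more. The shares over all features without a gene symbol were not computed. Among the 1961 named genes, a set these features are not part of, 34.4% read higher and 42.8% lower.

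Tpm3, a tropomyosin gene with several features, differed by 0.002 on its strongest feature, at 17.39 with sorafenib and 17.38 with lenvatinib, and by 0.60 on a weaker one. The features of Oaz2, antizyme 2, differed by -0.12 and -0.06.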
